A study of Homo sapiens and Mus musculus with 20 samples.

Results

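The chromatin around 7 luminal mammary regulator genes was described in the human mammary epithelial line MCF10A: the hormone receptor genes ESR1, PGR and PRLR, the transcription factor genes FOXA1 and ELF5, and the keratin genes KRT8 and KRT18. They were named by their roles in luminal cells and are 7 of the 20162 protein-coding genes of the GENCODE annotation on hg19 (GRCh37). Each gene was taken with 100 kb on either side of its body, and every peak with at least 1 bp in such a window was counted. The windows of KRT8 and KRT18 overlap, so the 7 windows form 6 separate loci.

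The study asked how Satb1, a chromatin-binding protein with CUT domains and a homeodomain (HD), selects its sites, and 7 of its 20 samples were used here. MCF10A is a non-tumorigenic line without native Satb1. All ChIP-seq cells carried a lentivirally integrated Satb1 construct that ended in eGFP and was driven by a cumate-switch promoter. They were sorted on one fluorescence gate, and chromatin was pulled down with an antibody to GFP. The 5 ChIP-seq groups were full-length Satb1 (FL), Satb1 lacking only the homeodomain (∆HD), the N-terminal part with the first CUT domain (N-C1), and full-length Satb1 after 2 h of camptothecin, a topoisomerase I poison, or of ICRF-193, a topoisomerase II inhibitor. The 2 ATAC-seq groups, in which a transposase marks accessible chromatin, were native MCF10A cells and MCF10A cells expressing Satb1.

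Each group was deposited as 1 peak list, so there was no replicate spread, no test could be run, and differences between lists are given as values only. The lists held 22877 (FL), 50537 (∆HD), 62856 (N-C1), 24475 (camptothecin) and 37350 (ICRF-193) Satb1 peaks, and 175989 (native) and 206170 (Satb1-expressing) ATAC peaks. Sequencing depth per list was unknown, so numbers of peaks in different lists are not measures of binding, and a place without a peak is not shown to be unbound or closed. Peak height is the fold enrichment over the local background within its own list. Beside shares stand exact binomial 95% intervals by the method of Clopper and Pearson, and they speak of counting error alone.

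Luminal cells line the ducts and alveoli of the mammary gland. ESR1 and PGR encode the nuclear receptors for estrogen and progesterone, which mark hormone-sensing luminal cells. FOXA1 encodes a pioneer factor that opens chromatin for the estrogen receptor. PRLR encodes the prolactin receptor and ELF5 an ETS-family factor, both needed for the alveolar, milk-producing branch. KRT8 and KRT18 encode the paired keratins of simple epithelia and are neighbours on chromosome 12. MCF10A is known to make little estrogen receptor and to carry basal features.

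The label of the line was checked by the promoters of marker genes, where a gene was called open if an ATAC peak overlapped the promoter (1000 bp before to 100 bp after the start) of any protein-coding transcript. All 12 basal mammary markers, KRT5, KRT14 and TP63 among them, were open in both ATAC lists, in which 76.8% (native) and 80.3% (Satb1) of all protein-coding genes were open. Of 18 further luminal genes, 15 were open in each list, with KIT and KRT19 closed in both. Of 5 epithelial genes, 4 were open in each list, and of 7 T cell genes 3 were open in the native list and 4 in the Satb1 list. The luminal and epithelial shares were thus close to that of all genes. An open promoter is not a measure of expression.

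The Satb1 motif was searched as exact matches to CTAATAA or CTAATAG, to CTATTAA or CTATTAG, to TTAATAA or TTAATAG, and to TTATTAA or TTATTAG. The reverse complement of each of these 8 words is among them, so 1 scan covers both strands, and matches may overlap. In the sequences printed here, in lower case from the hg19 plus strand, capitals mark these matches. The first set shows, for each member with a full-length peak, the 200 bp at the summit of its highest one. For FOXA1 only 30 bp are shown, since that summit lies in an exon. They are centred on the closest pair of matches and do not contain the summit itself, at 38019195.
ESR1, chr6:152550585-152550784: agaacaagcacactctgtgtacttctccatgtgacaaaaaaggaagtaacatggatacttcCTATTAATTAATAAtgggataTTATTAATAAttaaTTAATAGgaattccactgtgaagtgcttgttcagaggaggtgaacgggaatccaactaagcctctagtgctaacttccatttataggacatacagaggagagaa
PGR, chr11:101003531-101003730: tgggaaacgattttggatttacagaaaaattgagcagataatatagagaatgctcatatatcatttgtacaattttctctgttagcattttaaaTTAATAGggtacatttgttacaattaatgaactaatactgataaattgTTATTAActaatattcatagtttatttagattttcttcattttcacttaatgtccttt
PRLR, chr5:34993622-34993821: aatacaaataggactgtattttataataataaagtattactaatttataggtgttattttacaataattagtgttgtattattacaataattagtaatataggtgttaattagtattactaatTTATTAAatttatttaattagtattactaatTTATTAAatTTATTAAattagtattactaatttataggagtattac
FOXA1, chr14:38019225-38019254: aagcaaagTTATTAATTATTAAtatatgag
ELF5, chr11:34626905-34627104: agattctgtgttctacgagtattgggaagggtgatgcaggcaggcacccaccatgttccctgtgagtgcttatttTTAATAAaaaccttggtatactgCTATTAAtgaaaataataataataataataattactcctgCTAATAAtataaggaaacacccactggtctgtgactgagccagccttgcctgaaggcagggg
KRT8, chr12:53191405-53191604: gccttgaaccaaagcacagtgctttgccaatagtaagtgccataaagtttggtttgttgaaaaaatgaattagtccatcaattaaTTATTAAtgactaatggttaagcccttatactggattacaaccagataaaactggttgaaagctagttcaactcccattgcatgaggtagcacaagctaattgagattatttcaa

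The 200 bp at these summits held from 1 match (KRT8) to 5 (ESR1), with 3 at FOXA1, of which 2 are printed. In the ESR1 site the 5 matches started 7, 14, 3 and 11 bp after each other. A second set was chosen after the values were seen. The first of these is the PGR site with the most matches, the next a PRLR site whose 3 matches all had the narrower form CTAATAA or CTAATAG on either strand, and the last the only Satb1 site at a member promoter.
PGR, chr11:100875908-100876107: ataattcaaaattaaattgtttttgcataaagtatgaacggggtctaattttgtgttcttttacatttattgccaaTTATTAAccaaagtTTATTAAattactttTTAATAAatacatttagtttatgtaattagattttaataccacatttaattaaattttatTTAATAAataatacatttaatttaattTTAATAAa
PRLR, chr5:35274373-35274572: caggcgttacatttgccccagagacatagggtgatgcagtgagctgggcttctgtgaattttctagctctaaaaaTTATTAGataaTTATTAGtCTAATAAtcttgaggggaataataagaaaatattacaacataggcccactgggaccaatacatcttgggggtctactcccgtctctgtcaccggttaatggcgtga
PRLR promoter, chr5:35090370-35090569: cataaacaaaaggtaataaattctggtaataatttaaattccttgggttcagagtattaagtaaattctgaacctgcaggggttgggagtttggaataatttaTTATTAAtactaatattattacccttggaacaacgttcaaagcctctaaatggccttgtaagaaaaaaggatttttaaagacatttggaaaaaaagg

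The 7 windows, 2063.48 kb without overlap, held 19 peaks of FL, 38 of ∆HD, 43 of N-C1, 13 after camptothecin and 28 after ICRF-193. Of the 7 genes, 6 had an FL peak in the window, against 58.8% of all protein-coding genes. The same 6 had a ∆HD peak (75.4% of all genes), an N-C1 peak (76.5%) and a peak after ICRF-193 (65.1%), and 5 had one after camptothecin (54.4%). The interval of 6 of 7 runs from 42.1 to 99.6%, and that of 5 of 7 from 29.0 to 96.3%, and each held its background. KRT18 was the gene without a Satb1 peak in any list, and KRT8 lacked one after camptothecin.

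**Figure D1:**
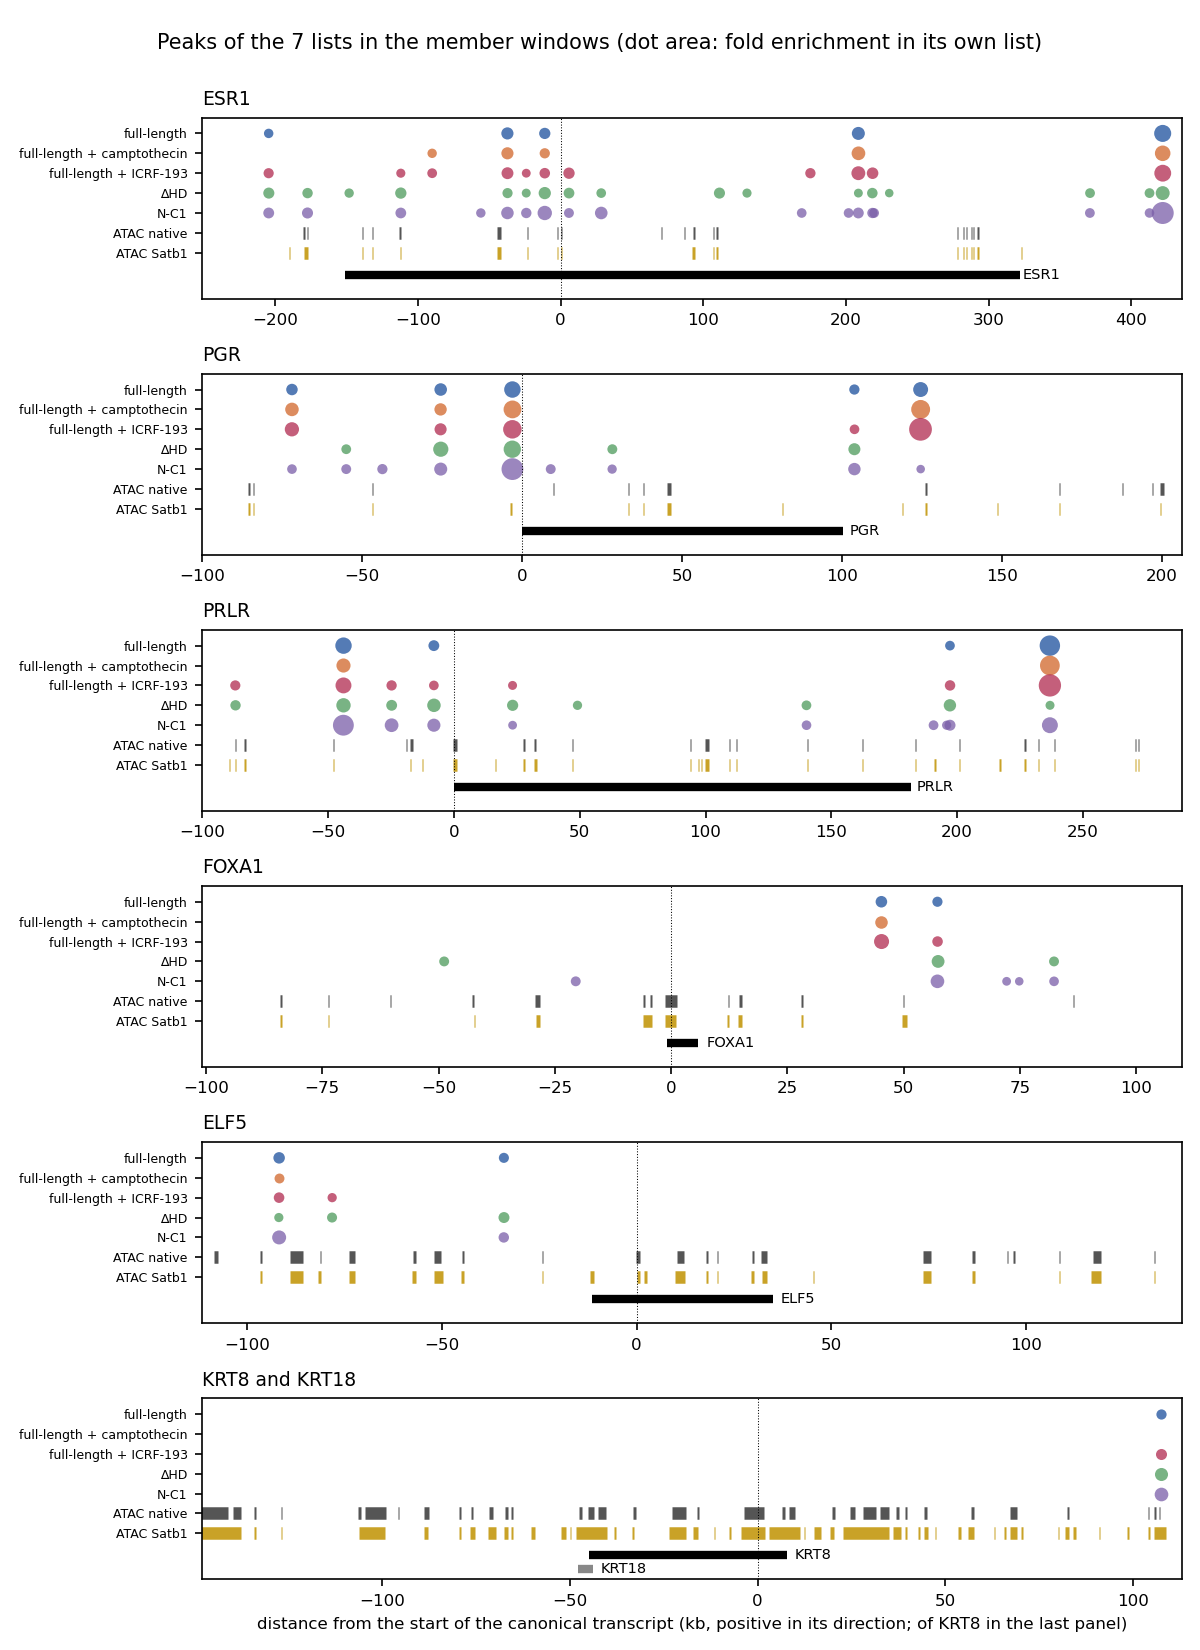
Peaks of the 5 Satb1 lists and the 2 ATAC lists in the member windows, by distance (kb) from the start of the canonical transcript, with dot area for fold enrichment in its own list. ESR1, PGR and PRLR carried 14 of the 19 FL peaks, and the KRT8 and KRT18 window was dense in ATAC peaks but held 1 Satb1 site at its edge.

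Per 100 kb of window, FL peaks were densest at PGR (1.67), followed by PRLR (1.05), FOXA1 (0.968), ELF5 (0.812), ESR1 (0.743), KRT8 (0.396) and KRT18 (0). The median over all protein-coding genes was 0.400. PGR thus lay at the 95.1th percentile of all genes and KRT8 at the 49.5th. In the ∆HD list the order changed: ESR1 had the highest density, 2.53 per 100 kb, at the 90.7th percentile, and PRLR had 2.36, against a median of 0.805. In the N-C1 list PGR was again highest at 2.998 per 100 kb, against a median of 0.902. These densities rest on 0 to 5 FL peaks per gene.

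**Figure D2:**
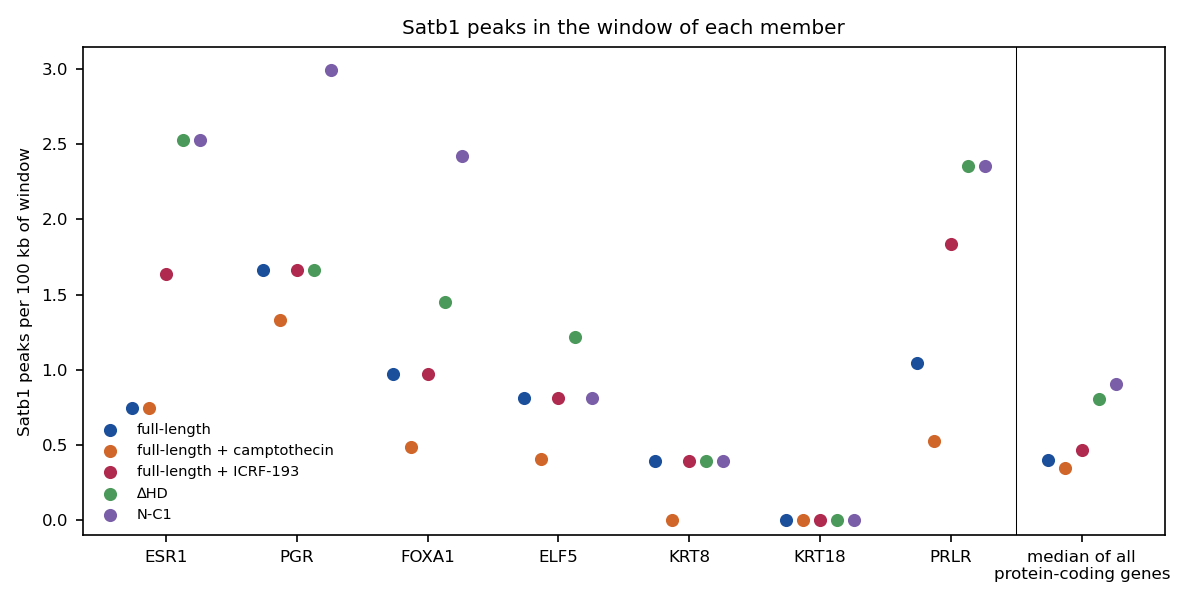
Satb1 peaks per 100 kb of window (y axis) for each member and each of the 5 Satb1 lists, with the median of all protein-coding genes at the right. In the FL list PGR stood at 1.67 and the median at 0.400, and KRT18 was at 0 in every list.

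The windows also differed in base composition. A/T content was 62.8% at PGR, 61.4% at FOXA1, 60.3% at ESR1, 59.6% at PRLR, 57.6% at ELF5, 51.3% at KRT18 and 51.0% at KRT8, with a median of 55.8% over all genes. ESR1, PGR, FOXA1 and PRLR fell in the richest of 4 classes of equal size into which all genes were split by A/T content, and in this class 88.6% of windows held an FL peak at a median of 0.868 per 100 kb. KRT8 fell in the poorest class, with 25.4% and a median of 0, and KRT18 in the next, with 50.02%. The density of the motif followed the same order of loci, from 101 matches per 100 kb at PGR to 37.2 at KRT18, around a median of 60.6. The part of base composition in the peak densities was not tested.

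Only a few of the motif matches lay inside an FL peak. Over all windows this was 57 of 1678 matches (3.40%, 2.58 to 4.38%), and genome-wide 2.71%. PGR stood highest with 25 of 302 (8.28%, 5.43 to 12.0%). The intervals in this paragraph take matches as independent. The 25 at PGR lay in only 5 FL peaks, so its interval is too narrow. The other shares were 3.47% at FOXA1, 2.94% at PRLR, 2.27% at ELF5, 1.85% at ESR1 and 1.02% at KRT8. The 76 matches of the KRT18 window held none, which allows a share of up to 4.74% by the exact interval.

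ESR1 has the longest body of the 7, 472.93 kb at chr6:151977826-152450754 on the plus strand, and was the only member with FL peaks inside its body. In the following, distances run from the nearest annotated start of the named gene, negative upstream, and fold enrichments are given for the lists in the order FL, ∆HD, N-C1, camptothecin and ICRF-193. The highest ESR1-window peak, chr6:152550469-152550891, lay in intron 115 of the neighbouring gene SYNE1, a nuclear envelope protein gene, with fold enrichments of 20.3, 12.9, 35.2, 16.6 and 19.8. It sat on the window edge, and the site merged over the lists reached 278 bp past it, so it belongs to the ESR1 window by position only. It was in each list the highest Satb1 peak of that window.

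The 3 FL peaks inside the ESR1 body were all intronic and were found in all 5 lists. The values of 2 of them are given. The peak chr6:152091436-152091759, at −34.0 kb in an intron of a non-canonical transcript, had fold enrichments of 9.38, 5.94, 10.0, 9.35 and 8.90. The peak chr6:152117645-152117906, at −7.79 kb, had 7.74, 9.53, 13.9, 6.10 and 6.55. A peak outside the body, chr6:151924234-151924464 in intron 9 of CCDC170 at −87.3 kb, was absent after camptothecin and had 4.86 (FL), 7.45 (∆HD), 7.08 (N-C1) and 5.97 (ICRF-193). It was the weakest FL peak of all members, at the 6.69th percentile of its list.

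When the peaks of the 5 lists were merged where they overlapped, the ESR1 window held 23 sites, of which 18 lay in the body and 18 lacked an FL peak. Genome-wide, 29.6% of merged sites had an FL peak. Of the 18 ESR1 sites without one, 8 were shared by ∆HD and N-C1, 4 were N-C1 only and 4 ∆HD only. Of the 76658 merged sites of the genome, these classes held 28.3%, 20.8% and 10.2%. In N-C1 the highest of the 18 was chr6:152157135-152157515 in intron 1 (fold enrichment 10.2 in N-C1 and 5.18 in ∆HD). A site at chr6:152134502-152134986, also in intron 1, appeared in ∆HD (6.88), N-C1 (5.52) and after ICRF-193 (7.92) without an FL peak.

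PGR, on the minus strand at chr11:100900355-101000544, had 5 FL peaks, all outside its body. The peak chr11:101003318-101003917, at −3.09 kb within the antisense gene PGR-AS1, was the closest FL peak to any member start, and its fold enrichments were 18.8, 21.1, 34.5, 22.4 and 24.3. It was the highest PGR-window peak in the FL, ∆HD and N-C1 lists and stood at the 91.6th percentile of the FL list. It was thus present at high rank with and without the homeodomain. On the far side of the gene, the intergenic peak chr11:100875745-100876328 at 122 kb had no ∆HD peak and was low in N-C1, with 15.1 (FL), 3.61 (N-C1), 25.4 (camptothecin) and 37.8 (ICRF-193). Its 400 bp held 8 motif matches, the most of any member site, at 84.0% A/T.

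A second PGR-window peak also lacked ∆HD. The peak chr11:101072373-101072653 in PGR-AS1 at −72.0 kb had 8.15 (FL), 5.18 (N-C1), 12.1 (camptothecin) and 13.6 (ICRF-193). The peak chr11:101025783-101026276, at −25.4 kb in PGR-AS1, was in all lists with 10.1, 15.8, 11.1, 9.71 and 9.29. The peak chr11:100896618-100896871, at 101 kb beyond the end of the gene, was absent after camptothecin and had 6.09 (FL), 9.15 (∆HD), 9.86 (N-C1) and 5.19 (ICRF-193). Inside the PGR body, intron 2 held 2 sites, seen only in N-C1 or in ∆HD and N-C1, with fold enrichments from 4.65 to 5.56.

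PRLR, on the minus strand at chr5:35048861-35230589, had 4 FL peaks, all outside its body, and among them the highest FL peak of all members. This intergenic peak, chr5:34993438-34994048 at 96.0 kb, had fold enrichments of 30.1, 4.24, 17.5, 27.98 and 36.2 and stood at the 97.3th percentile of the FL list, with 86.5% A/T. The peak chr5:35274247-35274666 at −43.9 kb showed another pattern, with 18.7, 13.9, 31.4, 13.3 and 17.5 at 60.5% A/T. It was the highest PRLR-window peak in ∆HD and in N-C1, and the A/T-rich peak was the highest in the 3 full-length lists.

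The other 2 FL peaks of the PRLR window were absent after camptothecin and lay below the median of the FL list. The peak chr5:35238422-35238690, at −7.99 kb, had 7.05 (FL), 12.0 (∆HD), 11.2 (N-C1) and 5.19 (ICRF-193). The peak chr5:35033325-35033554 in intron 6 of AGXT2 had 5.25 (FL), 9.78 (∆HD), 7.27 (N-C1) and 6.41 (ICRF-193) and was the only FL peak of the members without a motif match in 400 bp. Of 11 PRLR sites, 7 lacked FL, and genome-wide only 29.6% of merged sites had an FL peak. One of these 7, chr5:35090321-35090629, lay in the promoters of 2 internal PRLR starts and was seen in ∆HD (5.30) and N-C1 (5.12). No other Satb1 peak of any list lay in a member promoter.

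FOXA1, on the minus strand at chr14:38058757-38065264, had 2 FL peaks, both beyond the end of the gene in the neighbour MIPOL1. The peak chr14:38019033-38019477 at 45.3 kb overlapped a MIPOL1 exon and was in neither truncation list, with 8.28 (FL), 10.1 (camptothecin) and 15.3 (ICRF-193). It was the only member site of this kind, and 0.997% of the 76658 merged sites of the genome share it. The peak chr14:38007060-38007353 in intron 12 of MIPOL1 at 57.3 kb had the reverse order, with 5.96 (FL), 10.7 (∆HD), 12.3 (N-C1), 6.55 (ICRF-193) and no peak after camptothecin. It was the highest FOXA1-window peak in the ∆HD and N-C1 lists. No FOXA1 site was in all 5 lists, against 21.0% of merged sites genome-wide. Of its 7 sites 3 were N-C1 only and 1 ∆HD only, against 20.8% and 10.2% genome-wide. With 7 sites, these counts do not set FOXA1 apart.

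ELF5, on the minus strand at chr11:34500338-34546740, had 2 FL peaks, both upstream. The peak chr11:34626863-34627183 lay between genes with EHF, another ETS-family gene, as the nearest start, and had 8.17, 4.49, 13.04, 5.57 and 6.63. The peak chr11:34569249-34569483 at −22.7 kb in a lncRNA gene was absent from both treated lists and had 5.82 (FL), 7.26 (∆HD) and 6.39 (N-C1). The third ELF5 site, chr11:34613266-34613623, was seen in ∆HD (5.75) and after ICRF-193 (4.60). No ELF5 site was in 1 list only.

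KRT8, on the minus strand at chr12:53290971-53343738, had a single site, 268 bp inside the window edge. Its FL peak chr12:53191397-53191648 lay 106 kb from KRT8 and −1.604 kb from the start of KRT3, another keratin gene, with 6.04 (FL), 11.1 (∆HD), 12.4 (N-C1) and 7.38 (ICRF-193) and no peak after camptothecin. KRT18, on the plus strand at chr12:53342655-53346690, had no Satb1 site. Both keratin bodies and all flank nearer than this site were thus without a peak in the 5 lists.

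**Figure D3:**
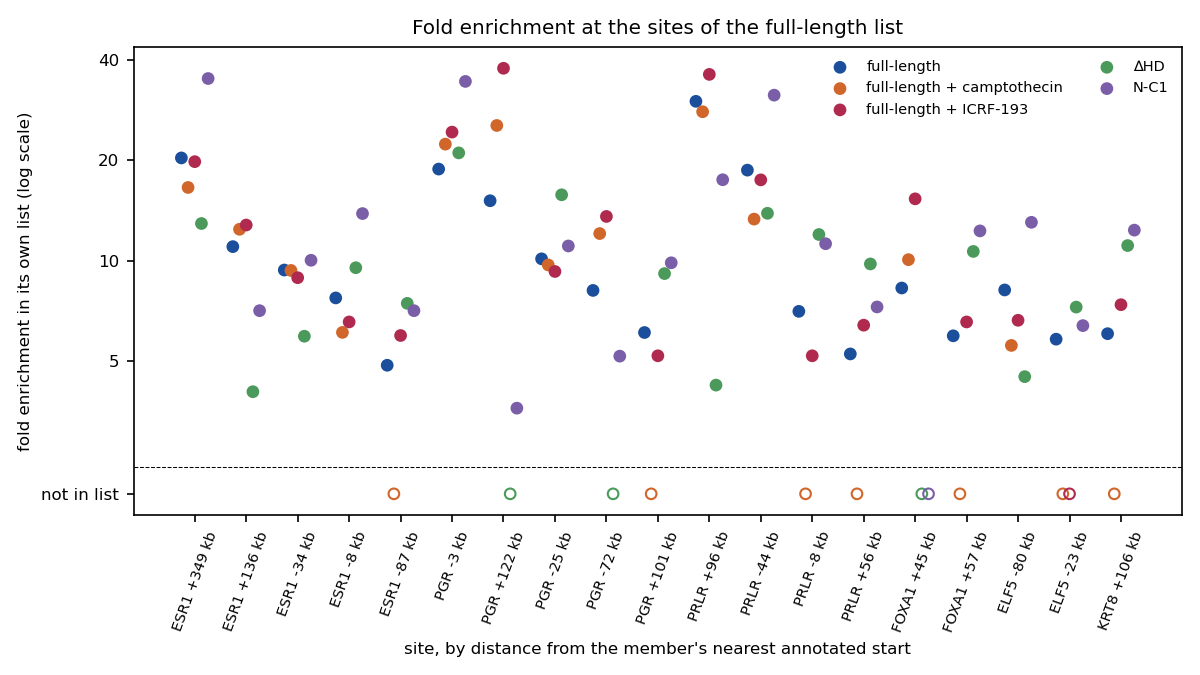
Fold enrichment (log scale, each within its own list) of the 5 Satb1 lists at the 19 sites with an FL peak, ordered by member and labelled with the distance from its nearest annotated start. The sites with low FL values lacked the camptothecin point, and 3 sites at PGR and FOXA1 lacked the ∆HD point.

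Over all members the 19 FL peaks were found again in ∆HD in 16 cases (84.2%, 60.4 to 96.6%, against 88.6% of the whole FL list). In N-C1 there were 18 (94.7%, against 95.2%) and after ICRF-193 also 18 (against 92.9%). After camptothecin there were 12 (63.2%, 38.4 to 83.7%, against 81.7%). In each case the interval held the share of the whole list. The 7 FL peaks absent after camptothecin had fold enrichments of 4.86 to 7.05 and the 12 found again 7.74 to 30.1, without overlap. In the whole FL list the medians were 5.68 for peaks absent after camptothecin and 8.15 for those found again. The ranges of these groups overlapped widely there, so the clean separation held for the member peaks only. The 7 absent ones came from ESR1, PGR, FOXA1, ELF5, KRT8 and, with 2, PRLR.

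The 3 FL peaks without a ∆HD peak, 2 at PGR and 1 at FOXA1, had a median A/T content of 78.5% in 200 bp, against 68.0% for the 16 found again. The medians of the whole FL list were 78.0% and 72.0%. All 3 were present after both treatments, and only the FOXA1 one was also absent from N-C1.

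The merged lists gave 54 sites in the windows. Of these, 9 were in all 5 lists (16.7%, 7.92 to 29.3%), 4 at ESR1, 2 each at PGR and PRLR and 1 at ELF5, against 21.0% genome-wide. A further 25 (46.3%, 32.6 to 60.4%) were seen with ∆HD or N-C1 but in no full-length list, against 47.9% genome-wide, and 18 (33.3%) were in 1 list only, against 35.9%. Sites without an FL peak were lower: their median fold enrichment was 5.35 in N-C1 and 5.56 in ∆HD, against 11.2 and 9.66 at sites with one. Their highest was 12.5 in N-C1 and 7.83 in ∆HD, against 35.2 and 21.1. The same comparison was not made genome-wide, so it is not shown to be particular to these windows.

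A motif match lay within the 400 bp at the peak midpoint in 18 of the 19 FL peaks (94.7%, 74.0 to 99.9%, against 96.6% of the whole list). It was found in 37 of 38 ∆HD peaks (93.7% of the whole list), 40 of 43 N-C1 peaks (94.5%), all 13 camptothecin peaks (96.1%) and 26 of 28 ICRF-193 peaks (95.6%). Each of these member shares lay close to that of its whole list. The number of matches did not strictly order the heights: the highest FL peak, at PRLR, held 3 matches. The PGR site with 8 matches stood at the 86.6th percentile. The lower FL peaks nonetheless held fewer matches. The 7 with fold enrichments of 4.86 to 7.05 had a median of 1, and the 12 with 7.74 to 30.1 a median of 3.5. These groups are the peaks absent and found again after camptothecin. In the whole FL list the medians of those 2 classes were 2 and 3, a smaller difference.

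FL peaks lay mostly outside ATAC peaks. In the native list 1 of 19 overlapped one (5.26%, 0.133 to 26.03%, against 3.42% of the whole FL list), and in the Satb1 list 2 of 19 (10.5%, 1.30 to 33.1%, against 4.64%). The PGR peak at −3.09 kb touched an ATAC peak by 6 of its 600 bp in the native list and by 29 bp in the Satb1 list. The KRT8-window peak lay wholly inside an ATAC peak of the Satb1 list only. That ATAC peak was 3204 bp wide and also overlapped the separate native peaks chr12:53191787-53192027 and chr12:53192890-53193415. Neither native peak reached the FL peak, and the cause of the wider peak was not tested. The median gap from an FL peak to the nearest ATAC peak was 7.04 kb in the native list and 4.31 kb in the Satb1 list, and 8.23 and 7.40 kb over the whole FL list. For the 38 ∆HD peaks 5 overlapped an ATAC peak in each list (13.2%, 4.41 to 28.1%, against 4.60 and 5.46% of the whole ∆HD list). Of the 43 N-C1 peaks 1 (native) and 3 (Satb1) did so, against 3.73 and 4.35% of the whole N-C1 list. Of the 28 ICRF-193 peaks 2 and 3 did so, against 3.20 and 3.92% of that list. Of the 13 camptothecin peaks 0 did so in both lists, which allows up to 24.7% by the exact interval. The whole camptothecin list had 3.17 and 4.14%.

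At the promoters, 6 of the 7 genes were open in the native list (85.7%, 42.1 to 99.6%, against 76.8% of all genes) and the same 6 in the Satb1 list (against 80.3%). The gene with no open promoter was PGR. Its 4 distinct starts had no ATAC peak in either list, and the nearest peak lay 2.37 kb (native) and 2.34 kb (Satb1) from the canonical promoter. This was the peak that touched the FL peak at −3.09 kb. One PGR promoter held 117 CG dinucleotides at 32.2% A/T. Of the 3130 promoters with at least as many, 91.9% were open in the native list and 93.2% in the Satb1 list, and 6.29% in neither. Over all genes, 18.6% had no open promoter in either list.

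ESR1 was open only by a weak peak. In the native list 1 of 8 starts had a peak, of fold enrichment 2.35, at the 7.54th percentile of the list. In the Satb1 list a wider peak, 902 bp in place of 331 bp, of fold enrichment 1.98 covered that promoter and 2 further ones, the canonical start among them. Its −log10 q was 2.03, and that of the native peak was 1.80.

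The PRLR and FOXA1 promoters were open in both lists. PRLR was open at 8 of 9 starts. The canonical PRLR peak had 9.91 in the native list and 6.20 in the Satb1 list, and the highest PRLR promoter peak, at the start at 35135553, had 14.2 and 14.7. The single FOXA1 promoter, with 92 CG dinucleotides, had 12.0 in the native list and 11.5 in the Satb1 list. This FOXA1 peak also covered a start of the neighbour TTC6.

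ELF5 had 3 of 5 starts open in each list, but not the same ones. The main peak stood at 8.45 in the native list and 7.73 in the Satb1 list. In the Satb1 list it ended 5 bp before the promoter window of the canonical start, which was thus called closed, so this difference rests on the position of a peak end. The 2 starts open in the Satb1 list alone had weak peaks of 1.79 and 2.13.

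All 10 KRT8 starts and all 3 KRT18 starts had a peak in both lists. The canonical KRT8 peak had 16.7 over 5456 bp in the native list and 15.3 over 6390 bp in the Satb1 list. The KRT18 promoter peak, which also covers 5 KRT8 starts, had 21.0 over 1807 bp in the native list and 9.94 over 8375 bp in the Satb1 list. In the broad peaks of these lists fold enrichment is an average over the peak, and the Satb1-list peak spanned 3 separate native peaks of 2138, 1807 and 896 bp.

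**Figure D4:**
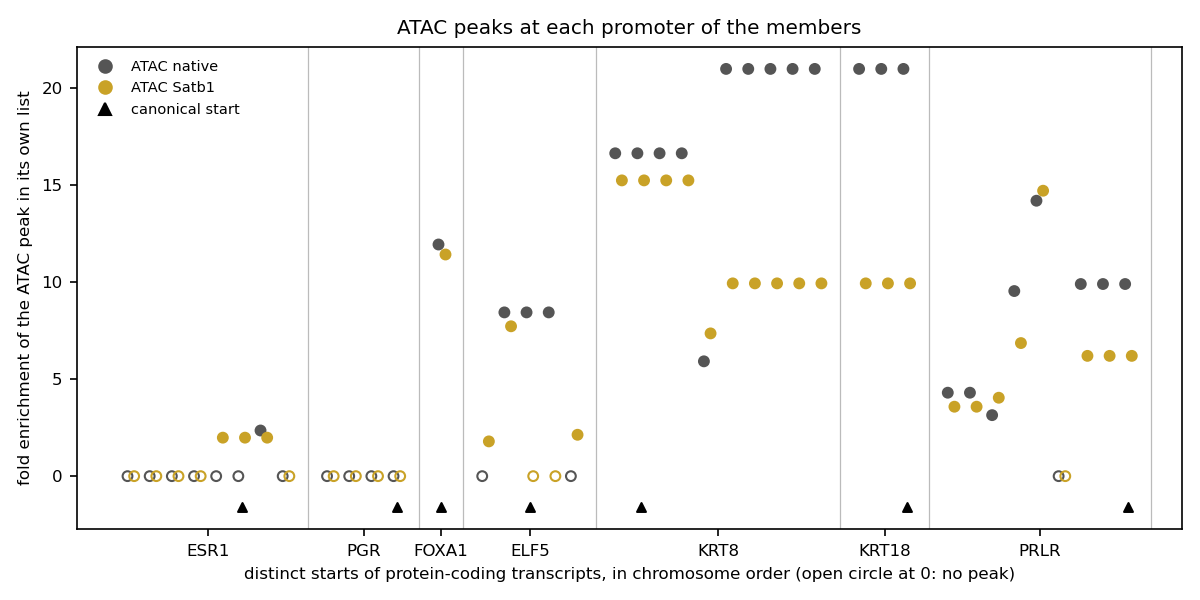
Fold enrichment of the ATAC peak, within its own list, at every distinct start of the members' protein-coding transcripts, with open circles at 0 where there was no peak and triangles for canonical starts. The 4 PGR starts were at 0 in both lists, and the KRT18 starts were at 21.0 (native) and 9.94 (Satb1).

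Of the 40 member promoters 10 held a motif match (25%, 12.7 to 41.2%), and of all 78560 distinct promoters 30.9%. None of the 40 overlapped an FL, camptothecin or ICRF-193 peak, and of all distinct promoters 241, 232 and 349 did, so such an overlap was rare in the genome as well. In each of ∆HD and N-C1, 2 of the 40 did, both at the 1 PRLR site. Of all distinct promoters 598 (∆HD) and 643 (N-C1) did.

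Away from promoters, the windows held 125 distal ATAC peaks in the native list and 139 in the Satb1 list. By gene these were 31 and 35 at ESR1, 13 and 15 at PGR, 20 and 26 at PRLR, 12 and 9 at FOXA1, 20 and 19 at ELF5, 29 and 35 at KRT8 and 24 and 28 at KRT18. The densities per 100 kb in the native list ran from 4.33 at PGR to 11.8 at KRT18, around a median of 7.35 over all genes. FOXA1 was the only member with fewer ATAC peaks in all in the Satb1 list, 10 in place of 13, as were 17.7% of all genes.

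The strongest distal peaks were the same in both lists at ESR1, ELF5 and PRLR. The highest at ESR1, in intron 7 at chr6:152416076-152416841, had 28.7 in the native list and 23.7 in the Satb1 list, so ESR1 carried the highest distal peak of all members while its promoter peak in the native list was the lowest of their promoter peaks. PRLR had one in intron 1 at chr5:35197877-35198682 with 18.4 and 11.5. ELF5 had one at chr11:34592003-34592749, −45.6 kb, with 16.0 and 13.1.

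At the other members different peaks led the lists. For FOXA1 the native list was led by chr14:38092647-38093628 in intron 3 of TTC6 at −28.7 kb, with 21.1 there and 14.8 in the Satb1 list. The Satb1 list was led by chr14:38049165-38049981, 14.9 kb from the start and past the end of the gene, with 16.2 there and 20.4 in the native list. The keratin window was led in the native list by chr12:53365303-53366225 (24.7, and 17.7 in the Satb1 list) and in the Satb1 list by chr12:53253533-53254656 (18.3, and 18.8 in the native list). PGR had only low distal peaks, up to 6.01 in intron 2 (chr11:100962525-100962945, 4.90 in the Satb1 list) and up to 5.77 in the Satb1 list (chr11:101047125-101047523 in PGR-AS1, 4.18 in the native list). None of these leading distal peaks overlapped a Satb1 peak of any list.

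Of the 141 native peaks in the windows 129 overlapped a peak of the Satb1 list (91.5%, 85.6 to 95.5%, against 88.8% of the whole native list). Of the 160 Satb1-list peaks 119 overlapped a native one (74.4%, 66.9 to 80.9%, against 70.2% of the whole Satb1 list). Both intervals held the share of the whole list. The 12 peaks in the native list alone had a median fold enrichment of 2.74, and the 41 in the Satb1 list alone 2.07, against 5.02 and 4.25 for shared ones. Of these 53 peaks, 2 and 8 reached a −log10 q of 5.

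The share of peaks in the Satb1 list alone differed between the genes. In the whole Satb1 list it was 29.8%. KRT8 had 19 of its 45 (42.2%), KRT18 12 of 34 (35.3%), PRLR 8 of 31 (25.8%) and PGR 4 of 15 (26.7%). ESR1 had 6 of 36, ELF5 4 of 23 and FOXA1 0 of 10. The 19 at KRT8 had fold enrichments of 1.82 to 3.25, and 3 of them reached a −log10 q of 5. The keratin locus thus held 19 of the 41 peaks in the Satb1 list alone, most of them weak. It also held 45 of all 160 Satb1-list peaks of the windows.

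The same locus had the largest difference in covered length. ATAC peaks covered 19.9% of the KRT8 window in the native list and 34.8% in the Satb1 list, and 24.0 and 39.4% of the KRT18 window. At ELF5 the values were 8.93 and 10.4%, at FOXA1 3.67 and 4.40%, at PRLR 3.46 and 4.13%, at ESR1 3.09 and 3.55% and at PGR 2.02 and 1.95%. PGR was the only member whose covered share was lower in the Satb1 list, by less than 0.1 percentage points. Over all genes the median covered share was 8.50% in the native list and 12.8% in the Satb1 list.

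The difference followed A/T content over all genes as well. In the class poorest in A/T, which holds KRT8, the medians were 18.8 and 36.1%, and in the next, which holds KRT18, 10.7 and 18.2%. In the third, which holds ELF5, they were 6.52 and 8.62%, and in the richest, which holds the other 4 members, 3.77 and 4.27%. KRT8, with a difference of 14.99 percentage points, was thus below the median of 17.4 of its own class. KRT18, with 15.3, was above the 7.01 of its class. These classes meet at 51.07% A/T, and KRT8 (51.0%) and KRT18 (51.3%) lie just on either side. Their windows share most of their length and their differences were close, so this contrast rests on the class boundary. Depth of the ATAC lists was unknown, and its part in these differences was not tested.

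**Figure D5:**
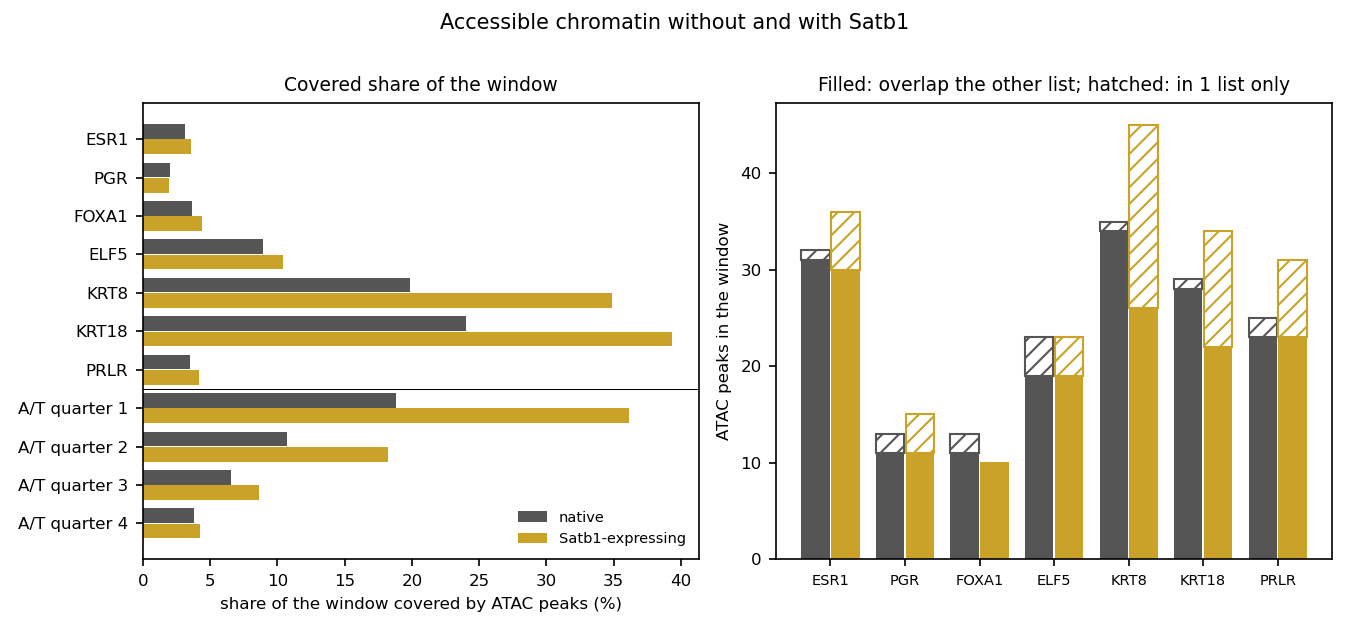
Left, share of each window (%) covered by ATAC peaks in native and Satb1-expressing cells, with the medians of all genes. Right, number of ATAC peaks per window, filled where they overlap the other list and hatched where they are in 1 list only. The KRT8 bars stand at 19.9 and 34.8%, and 19 of its 45 Satb1-list peaks were hatched.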

How the data were processed

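Per the labels and the study's methods, the authors removed adapters (cutadapt) and mapped reads to hg19, for ChIP-seq with Bowtie2. Both assays went through MACS2, with input DNA as control for ChIP-seq and the broad option for ATAC-seq. Versions of Bowtie2 and MACS2, and whether duplicates were pooled, are not given in the sources used here. The deposited fold enrichment is a ratio to the local background made by the authors for each list. MACS2 also gave each deposited peak its −log10 q-value and −log10 p-value, and a score made from the q-value by the authors' run of it. Peaks were intersected (at least 1 bp) with windows of 100 kb around gene bodies of GENCODE on GRCh37 with Python 3.11.15, numpy 2.4.6, pandas 2.3.3 and scipy 1.17.1, and the counting was checked against bedtools 2.31.1 and tested on simulated data. Motifs were counted in 400 bp at the peak midpoint, A/T content in 200 bp.

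Named were all 7 members, every full-length peak in their windows but 1 that is not reported here on its own, the highest peak of each member in each other ChIP list, the ATAC peaks at member promoters and the highest distal ATAC peak. The members and lists were chosen with earlier results of these data known. The alternatives changed the flank, the peak threshold, the overlap, the promoter and the motif. Not used here were 13 of the 20 samples, and CD24 was not matched in the annotation.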

Additional observations from a re-analysis of the deposited data

How the results depend on the processing

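Of 70 alternative values for 22 results, 46 stayed within 1.5 times the count or within the counting interval, and 24 did not. Without a flank the windows held 3 FL, 16 ∆HD, 16 N-C1, 4 camptothecin and 10 ICRF-193 peaks, and 47 native and 52 Satb1-list distal ATAC peaks. With 50 kb there were 12 FL peaks, and with 200 kb 30 FL, 21 camptothecin and 43 ICRF-193 peaks and 212 distal ATAC peaks of the Satb1 list. A −log10 q of at least 5 left 92 distal peaks in the Satb1 list. Where a reciprocal overlap of 50% was asked, FL peaks found again with ∆HD were 57.9%, and ATAC peaks shared 69.5% (native) and 61.2% (Satb1). FL peaks in native accessible chromatin were 0% by summit and 0% by a cover of at least 50%. With the narrower motif the shares were 57.9% (FL), 65.8% (∆HD), 60.5% (N-C1), 53.8% (camptothecin) and 57.1% (ICRF-193), and in the shorter window at the midpoint 71.1% for ∆HD. The cause of each change was not tested, beyond the smaller or larger window itself. Of promoters, ESR1 was also closed at a −log10 q of at least 5. With the gene's own 5′ end alone 4 members were open in the native list, with ESR1, PGR and ELF5 closed, and 5 in the Satb1 list, with ESR1 and PGR closed.

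No paired analysis was possible because each condition was 1 list. The unknown depth limits every comparison between lists, and 19 FL peaks give wide intervals.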
